A study of Drosophila melanogaster with 4 samples.

Results

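The regions described here are stretches of Drosophila melanogaster chromatin enriched for histone H3 monomethylated at lysine 27 (H3K27me1) that are under 10 kb wide and were found nearly whole in both replicates. They are lines of the whole-series list with at least 90% of their bases inside regions of replicate 1 and at least 90% inside regions of replicate 2. There were 360 of them among the 12362 lines of that list, and they held 1.97 Mb, or 4.75% of its enriched bases. Chromatin came from whole wild-type larvae of the Oregon-R strain at instar 3, so every value is an average over the tissues of the larva. Both ChIP replicates were precipitated with the rabbit polyclonal antibody of Millipore raised against a monomethylated peptide, and the series also holds 2 input samples, whose signal was not analysed here. The labels do not say whether the replicates came from separate collections of larvae, and a spread between them may thus be technical. Depth is unknown, because no list holds read counts.

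H3K27me1 is the first of the methylation states that a Polycomb complex with the enzyme E(z) can place on this lysine, and in flies that enzyme also makes the dimethylated and trimethylated forms. The trimethylated form marks genes silenced by Polycomb proteins, and the lower states lie more widely over the genome. How long a stretch carries the mark, and whether its edges are found again in a second sample, are properties a map of regions can show without knowing the genes. Positions below are on FlyBase release 5, the build of the files. No gene is named, because the only gene positions at hand were on Release 6.

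The regions were chosen by their width and by their measured coverage in both replicates, so all values from the same lists are given as a description, without tests. Of 11723 enriched whole-series regions under 10 kb, 360 met the rule in both replicates, which is 3.07% (95% Wilson interval 2.77 to 3.40, counting error only). Replicate 1 alone covered 2477 regions, or 21.1%, at this level, and replicate 2 alone covered 1137, or 9.70%. The 2 shares averaged 15.4% ± 8.08 (SD, n = 2). The 360 regions were therefore 14.5% of those covered in replicate 1 and 31.7% of those covered in replicate 2. Among blocks of 10 kb or more, 143 of 636, or 22.5%, were covered at this level in both.

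Reproducible regions were seldom narrow. Their widths ran from 1604 to 9959 bp, with a median of 5368 bp and an interquartile range of 3807 to 7192 bp. No region under 1.301 kb met the rule, which is the shortest width in either replicate list, and 6 of 3506 regions from there to 2 kb did. The share was larger in wider classes, with 56 of 2186 regions of 2 to 3 kb (2.56%) and 60 of 509 regions of 5 to 6 kb (11.8%, 9.27 to 14.9). From 7 to 10 kb it was 102 of 639, or 16.0%, and the intervals of the 3 widest classes overlapped. The number of uncovered bases that the rule tolerates grows with width, and how far this shapes the difference was not tested.

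**Figure D1:**
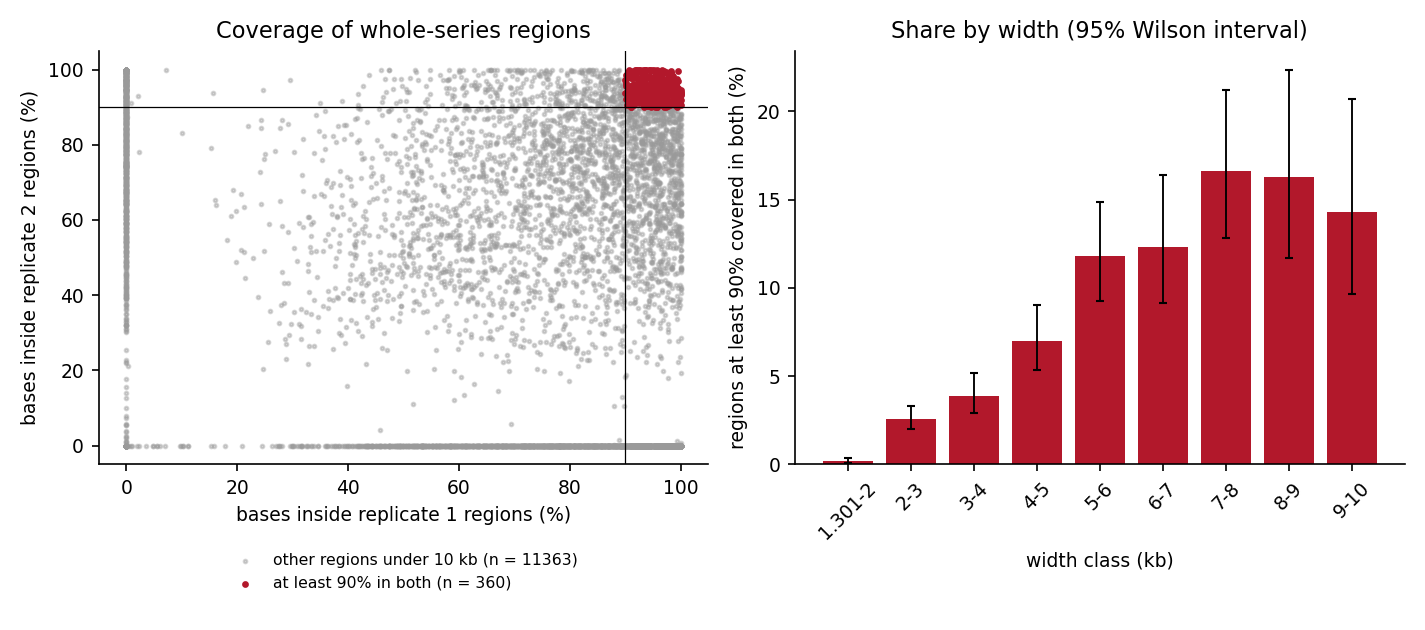
Left, percent of the bases of each whole-series region under 10 kb that lie inside regions of replicate 1 (x axis) and replicate 2 (y axis), with lines at 90% and the 360 reproducible regions in red. Right, percent of regions in each width class (kb) that met the rule, with 95% Wilson intervals; the bars rise from 0.171% at 1.301 to 2 kb to 16.6% at 7 to 8 kb.

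The edges of these regions agreed closely between the lists. A replicate border lay within 100 bp of the whole-series border at 381 of 720 borders in replicate 1 (52.9%) and at 365 of 720 in replicate 2 (50.7%). Within 200 bp these counts were 591 and 557. The offset was mostly inward, with a median of 82 bp inside the whole-series region in replicate 1 (offset -82 bp, interquartile range -154 to -22.5) and of 90.5 bp in replicate 2 (offset -90.5 bp, -179 to -19.8). Of the bases left uncovered, 90.7% in replicate 1 and 94.5% in replicate 2 lay at the ends, not in internal breaks. The rule itself limits how far inside a border can lie, so closeness is in part built in.

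Most of the regions were a single stretch in every list, though the rule limits how many bases a break can leave uncovered. Single stretches are thus in part built in, and no share of other regions is set beside them. A single replicate region overlapped 302 of the 360 (83.9%, 79.7 to 87.3) in both replicates, and 58 were met by more than 1 region in at least one replicate. Replicate 1 had 2 regions in 36 of them and 3 in 1, and replicate 2 had 2 in 26 and 3 in 4. In the other direction, a replicate region ran more than 1 kb past the whole-series border in 9 regions of replicate 1 and 5 of replicate 2. The extremes, chosen after their values were seen, were both on 2L. At 2175666 to 2178451 a replicate 1 region began 12065 bp before the whole-series border, and at 21630071 to 21636143 a replicate 2 region ended 15202 bp after it. In such places the whole-series list is cut where a replicate list is continuous.

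Regions on both sides of the coverage threshold were alike in score. The 119 regions whose lower coverage was 90 to 92% had medians of 4702 bp for width and 0.596 for the whole-series score. The 127 other regions at 88 to 90% had medians of 4180 bp and 0.573. The nearer neighbour lay a median of 858 bp away inside the threshold and 596 bp outside it. Both medians lay within the interquartile range of the 360 regions, 249 to 1715 bp. Just inside lay 2 regions on 3R, from 24687649 to 24696974 with a coverage of 90.01% in replicate 1 and 97.1% in replicate 2, and from 1086184 to 1093870 with 90.05% and 93.7%. Just outside lay a region on 2R from 9442702 to 9445480, with 89.96% and 90.3%, and a region on X from 8785624 to 8787467, with 89.9% and 91.4%. Across the width limit the whole-series score was also alike, with a median of 0.728 for the 22 reproducible regions of 9 to 10 kb and 0.727 for the 21 of 10 to 11 kb covered in both. The nearest beyond that limit were 2 blocks on 3R, from 2233186 to 2243336 with a score of 0.785 and from 2923617 to 2933796 with a score of 0.796.

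The score of a region is the enrichment value that the authors deposited, on a scale that no source used here states, so scores are given as deposited and compared by differences, never as folds. Reproducible regions had a median whole-series score of 0.634, with an interquartile range of 0.555 to 0.753. Other regions under 10 kb, weighted to the same widths in classes of 500 bp, had a median of 0.491 and an interquartile range of 0.414 to 0.578. The difference of the medians was 0.143, and 319 of the 360 scored above the median of the others in their own width class. Of the 360, 166 lay above the 90th percentile of those others (46.1%), while the lowest had a score of 0.0627. The difference was 0.037 for regions covered at 90% in replicate 1, whatever replicate 2 held, and 0.048 for those covered in replicate 2.

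The same order appeared with the scores of each replicate, taken as a base-weighted mean over the replicate regions overlapping a whole-series region. A replicate region that ran past the border entered with its full score. Coverage by these same replicate regions defined the set, so these scores are not independent of the rule. Reproducible regions had a median of 0.717 in replicate 1 and 0.650 in replicate 2, a mean of 0.683 ± 0.047 (SD, n = 2). Other whole-series regions of the same widths that overlapped both replicates had medians of 0.611 and 0.567. The differences of 0.106 and 0.083 averaged 0.095 ± 0.016 (SD, n = 2). A comparison within each replicate list gave smaller differences. Replicate 1 regions that overlapped a reproducible region scored 0.043 above the other replicate 1 regions of their own width, and in replicate 2 this was 0.011, a mean of 0.027 ± 0.023 (SD, n = 2). It differs from the comparison above in its units, which are 396 and 392 replicate regions, and in its others, which are all other regions of the replicate, as well as in the width used.

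Wider regions of the set scored higher. The median whole-series score went from 0.265 for the 6 regions under 2 kb to 0.459 at 2 to 3 kb, 0.597 at 3 to 4 kb and 0.728 at 9 to 10 kb. Under 2 kb the reproducible regions scored lower than the others of that class, which had a median of 0.340. In each class from 3 to 10 kb they scored higher by 0.138 to 0.175. The Spearman coefficient of width and whole-series score was 0.53 over the 360 regions and 0.30 over the other regions under 10 kb, as a description across regions of the same list.

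**Figure D2:**
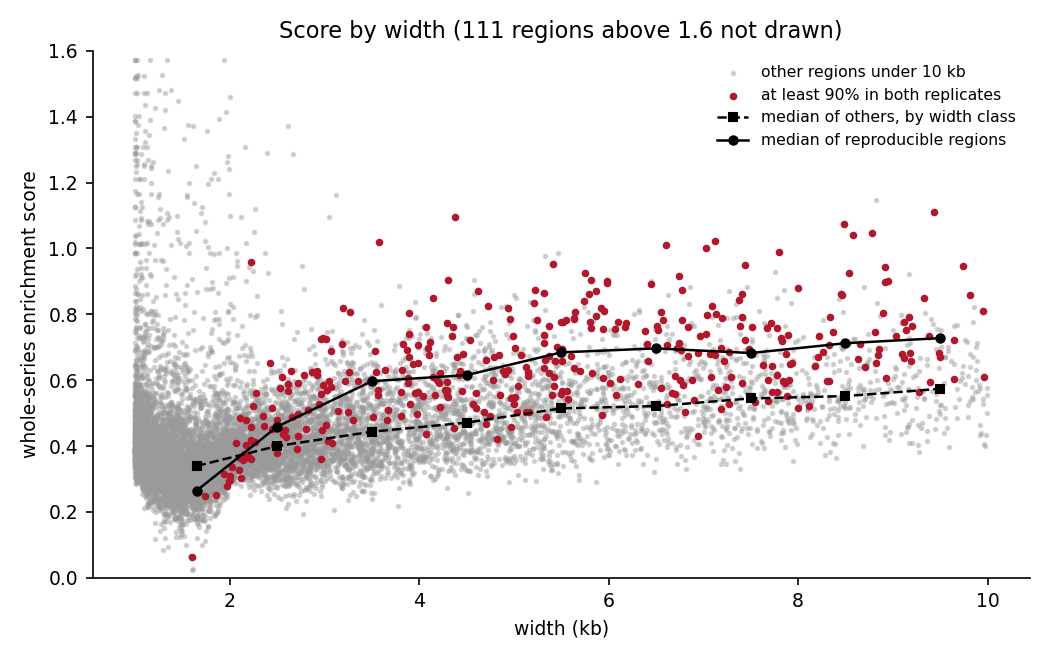
Whole-series enrichment score (y axis) against width in kb (x axis) for the 360 reproducible regions (red) and the other regions under 10 kb (grey), with the median of each set by width class; 111 regions above 1.6, of which 1 is reproducible, are not drawn. The medians cross between the 2 narrowest classes, and from 3 kb the reproducible regions lie 0.138 to 0.175 above the others.

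The neighbourhoods of the 6 regions under 2 kb differed, with 19.8 to 74.6% of the 50 kb on each side of them inside other regions. On 2L, a region of 1604 bp from 18605228 to 18606831 had a score of 0.0627, with 0.136 in replicate 1 and 0.228 in replicate 2. It was covered at 91.5% and 95.3%, and other regions held 58.1% of its surroundings. On 3R, a region of 1733 bp from 23421937 to 23423669 scored 0.248, 0.330 and 0.362 in the whole-series list, replicate 1 and replicate 2, and 62.4% of its surroundings were covered. A low score and edges found in every list thus occurred in the same region.

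Within the set, the replicates ranked the regions alike. Over the 360 regions their scores correlated at 0.78 by Spearman and 0.71 by Pearson, against 0.58 and 0.63 over the 3348 other regions under 10 kb that overlapped both. These sets were not matched on width, which itself went with score, and the coefficients describe regions that share libraries and carry no p. The rule asked for coverage in both replicates, so the coefficients of the set are not independent of it. Coverage among the others went down to 0.121% in replicate 1 and 0.178% in replicate 2. The coefficients of the set include the outlying region on U, with 1.17 and 2.70. Replicate 1 gave the higher score in 257 of the 360 and replicate 2 in 103, with a median difference of 0.057. Others that overlapped both replicates had a median difference of 0.034 in the same direction. In the set, the scores lay within 0.1 of each other in 216 regions and were 0.3 or more apart in 6. On the arms the widest gap in favour of replicate 1 was on 2L from 5306599 to 5310958, with 1.01 against 0.567. In favour of replicate 2 it was on 2L from 13550847 to 13556414, with 0.489 against 0.688. Coverage was lower in replicate 1 for 175 regions and in replicate 2 for 184.

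The whole-series score was never above both replicate scores. It lay below both in 190 of the 360 regions and between them in 170. Among the other regions under 10 kb that overlapped both replicates, 77.7% had a whole-series score below both. How the replicates entered the whole-series list is not given in the sources used here.

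**Figure D3:**
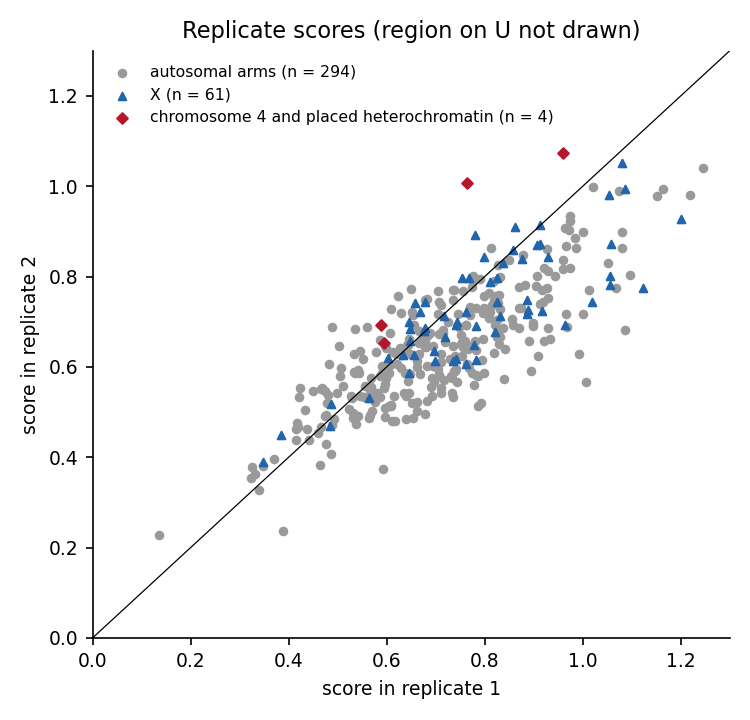
Score in replicate 1 (x axis) and replicate 2 (y axis) of the reproducible regions, by chromosome group; the line marks equal scores, and the single region on U (1.17 and 2.70) is outside the axes. Most points lie below the line, since replicate 1 was higher in 257 of 360 regions, and the 4 points of chromosome 4 and placed heterochromatin lie above it.

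The strongest region of each chromosome, by the lower of its replicate scores, was several kilobases wide. On 3L it spanned 9.43 kb from 18795899 to 18805331, with a score of 1.11, or 1.25 in replicate 1 and 1.04 in replicate 2. On X it spanned 6.60 kb from 3275863 to 3282466, with 1.01, 1.08 and 1.05 in the same order, and lay 255 bp from a block of 10 kb or more. On 2R a region of 7.80 kb from 7060937 to 7068731 had 0.989, 1.02 and 0.998, and lay 493 bp from such a block. A score of 1 or more in both replicates was reached by 3 of the 360, on 3L, X and U. On 2L the strongest had 0.917, 0.974 and 0.933 over 6.74 kb from 18320280 to 18327016, and on 3R it had 0.946, 0.973 and 0.922 over 9.74 kb from 22966 to 32701, near the start of the arm.

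Almost all of the set lay on the 5 large arms, which held 355 of the 360 (98.6%, 96.8 to 99.4). Other regions of the same widths would place 341 there. The 2L arm had 71 where its share of the width-matched others gives 56.9, 2R had 75 against 71.9, 3L had 69 against 68.3 and 3R had 79 against 71.5. X had 61 against 72.8. Per Mb these were 3.09, 3.55, 2.81, 2.83 and 2.72 regions. The share of regions under 10 kb that met the rule was 2.74% on X and 3.65% on the 4 autosomal arms together.

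X held fewer reproducible regions than width-matched others give, although its regions scored higher. Its share of the set was 16.9% (Wilson interval 13.4 to 21.2, counting error only). That interval contains the 20.2% given by width-matched others, so the width-matched gap on X lies within counting error. The median whole-series score of the set was 0.708 on X and between 0.603 and 0.625 on each of the 4 autosomal arms, and width-matched others had 0.544 on X and 0.472 to 0.490 on those arms. When others were matched on score as well as width, the number given for X rose to 105, against the 61 found, and fell below the number found on every autosomal arm. The score classes came from the same list and were shared by all scaffolds, and others on X scored higher. The number from score matching is thus not independent of that offset and is no separate sign of a gap on X. In replicate 1, 20.3% of the X regions were at least 90% covered after standardising to 1 set of widths, against 21.2 to 25.1% on the autosomal arms. In replicate 2 this was 9.02% on X and 9.16 to 10.9% on those arms. X was thus the lowest of the 5 in both replicates, but by 3.13 and 0.731 percentage points below the autosomal arms together (difference -1.93 ± 1.70, SD, n = 2), and in replicate 2 it was close to 2R. The share of the set on X was below that of width-matched others by 3.29 percentage points (difference -3.29), and this was -1.37 for regions covered in replicate 1, whatever replicate 2 held, and -1.86 for those covered in replicate 2.

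**Figure D4:**
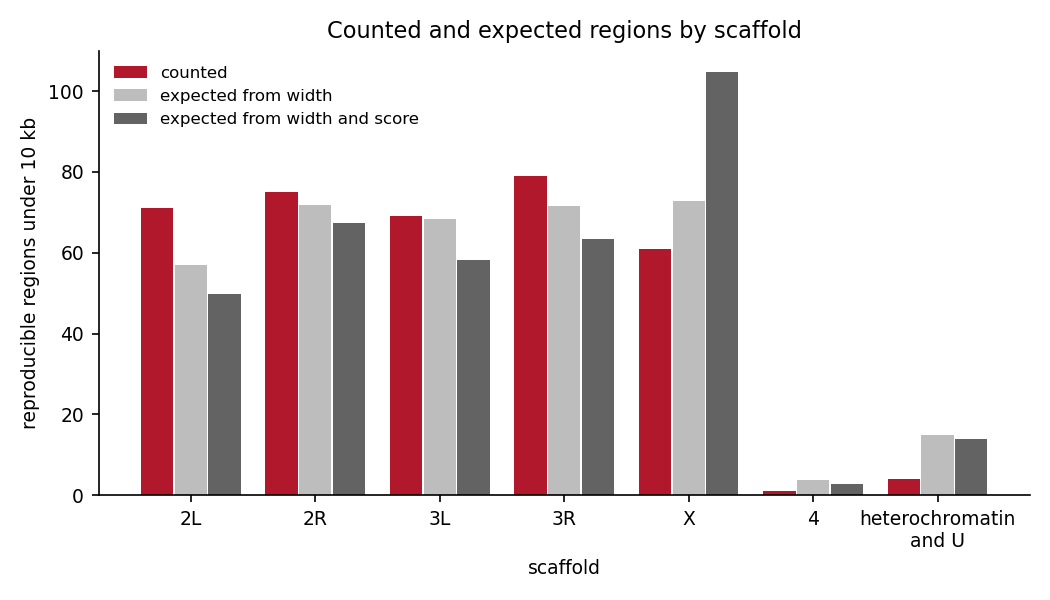
Reproducible regions counted on each scaffold (red, y axis: number of regions) beside the numbers that the other regions under 10 kb give when weighted to the same widths (light grey) or the same widths and score classes (dark grey). On X the count of 61 is below both 72.8 and 105, and on 2L the count of 71 is above both 56.9 and 49.7. Others on X scored higher than those on the autosomal arms, and the dark grey numbers are not independent of that offset.

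Outside the large arms the set was nearly empty. The 6 placed heterochromatin scaffolds and U held 1309 of the regions under 10 kb (11.2%) and 4 of the 360 (1.11%, 0.433 to 2.82), where width-matched others give 14.8. The share was lower than that of the others by 3.00 percentage points (difference -3.00). For regions covered at 90% in replicate 1, whatever replicate 2 held, the difference was -7.69, and for those covered in replicate 2 it was -0.210. These sets were narrower, with median widths of 2723 and 2928 bp against 5368 bp. Each was matched to its own widths, so the sizes of the differences are not directly comparable. Chromosome 4 had 1 reproducible region among 137 under 10 kb, against 3.78. That region spanned 7.41 kb from 90752 to 98157, with scores of 0.861, 0.764 and 1.01. The 4 in heterochromatin and U were narrower. On 3RHet, 2219 bp from 1598335 to 1600553 had scores of 0.958, 0.959 and 1.07, and on XHet, 3984 bp from 55654 to 59637 had 0.564, 0.589 and 0.692. On 3LHet, 3219 bp from 2258151 to 2261369 had 0.597, 0.594 and 0.652. On U, 3207 bp from 8581210 to 8584416 had 2.03, 1.17 and 2.70, the highest whole-series score of the set. All 5 regions outside the large arms scored higher in replicate 2 than in replicate 1.

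The distance to the next region did not set the reproducible regions apart. Their nearer neighbour lay a median of 744 bp away (interquartile range 249 to 1715), against 652 bp (218 to 1897) for others of the same widths. The difference was 91.5 bp, and 187 of the 360 were farther from a neighbour than the median of their width class. In the replicate lists the regions concerned, matched on their own widths, were 45 bp nearer (-45 bp) in replicate 1 and 106.5 bp farther in replicate 2. The direction thus differed between replicates. The SD of these values was 107 bp (n = 2), which is not a spread of the 91.5 bp, since units and widths differ. A neighbour lay within 1 kb of 61.1% of the set and 60.6% of the others.

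Few of them stood alone. The most isolated was 6.02 kb on 2L from 13290431 to 13296446, with 17.0 kb to its nearer neighbour, and it still scored 0.628 in replicate 1 and 0.643 in replicate 2. The next lay on 3L from 3240627 to 3246255, at 10.2 kb, with replicate scores of 0.904 and 0.779, and on 3R from 9479860 to 9483741, at 9.89 kb, with 0.701 and 0.606. At the other end, a region of 2939 bp on 2L from 3056239 to 3059177 had neighbours 37 and 65 bp away. A region of 5000 bp on 2R from 7104619 to 7109618 had them at 39 and 121 bp, and its right neighbour was a block of 10 kb or more. A region of 2500 bp on 3R from 10965206 to 10967705 had them at 94 and 112 bp, and a replicate 1 region ran 4864 bp past its right border.

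What lay nearby differed between the set and width-matched others. The nearest region was itself one of the 360 for 36 of them (10.0%) and for 4.28% of width-matched others. It was a block of 10 kb or more for 12.5% against 8.57%, and it overlapped neither replicate for 16.7% against 26.3%. Membership and overlap of the neighbour are defined by the replicate lists that the rule used, so those shares are not independent of it. A replicate region ran past a border of 101 of the 360 in replicate 1 and of 107 in replicate 2. The nearest block of 10 kb or more lay a median of 29.1 kb away, against 43.8 kb for the others and 40.1 kb for others overlapping both replicates. The interquartile ranges of this distance, 7081.5 to 104102 bp for the set and 11996 to 118402 bp for width-matched others, also overlapped for most of their length. The 50 kb on each side of the reproducible regions were 45.8% covered by other regions at the median, against 42.4% for width-matched others. The interquartile ranges of this covered share, 32.6 to 57.9% and 28.9 to 54.5%, overlapped for most of their length.

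**Figure D5:**
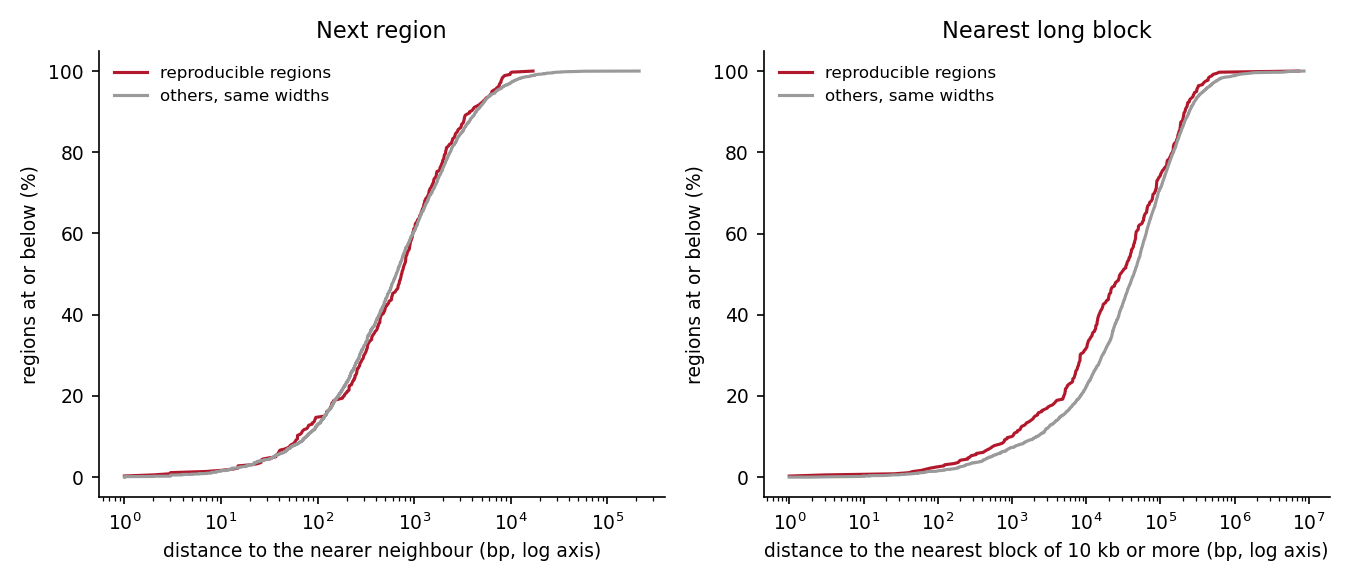
Percent of regions (y axis) whose nearer neighbour (left) or nearest block of 10 kb or more (right) lies at or below a distance in bp (x axis, log scale, distances of 0 drawn at 1), for the reproducible regions (red) and others weighted to the same widths (grey). The left curves run together, with medians of 744 and 652 bp, and on the right the red curve lies to the left, with medians of 29.1 and 43.8 kb.

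Along the arms the reproducible regions were spread thinly and unevenly. Of 117 full bins of 1 Mb, 15 held none, 70 held 1 to 4 and 32 held 5 or more, with a median of 3. The variance of these counts over their mean was 1.49. The fullest bins, 12 to 13 Mb on 3R and 11 to 12 Mb on X, held 8 each. The X bin was 44.3% covered by whole-series regions and the 3R bin 24.4%. Over the 117 bins the number of reproducible regions had a Spearman coefficient of 0.37 with the covered share and 0.12 with the number of regions under 10 kb. The coefficient was 0.18 with the number that width-matched others give. All are a description of neighbouring bins. In order along the scaffolds, 306 had no reproducible region as direct neighbour, and 22 pairs, 2 runs of 3 and 1 run of 4 held the rest.

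The run of 4 lay on 3R from 12063331 to 12086185, a span of 22.9 kb. Its regions were 2982, 6777, 1856 and 5922 bp wide, with whole-series scores of 0.727, 0.874, 0.251 and 0.819. In replicate 1 they scored 0.776, 0.974, 0.389 and 1.00, and in replicate 2 0.790, 0.819, 0.238 and 0.717. The narrow region was the lowest of the run in every list, and a replicate 1 region ran 1241 bp past its right border.

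The widest 3 of the set show how it ends at the limit. On 3L, 9959 bp from 14769512 to 14779470 had replicate scores of 0.677 and 0.643. On 3R, 9955 bp from 22957071 to 22967025 had 0.827 and 0.825, and 9818 bp from 27625557 to 27635374 had 0.922 and 0.818. Among blocks of 10 kb or more, the median whole-series score was 0.781 for the 143 covered at 90% in both and 0.603 for the others, without matching on width.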

How the data were processed

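ChIP-seq of H3K27me1 gave 1 list of enriched regions for each of 2 replicates and 1 for the whole series. The submitters' processing notes name Bowtie 0.12.7 without its role. The score of each region was computed by the authors and is on release 5, per the file headers; no source used here gives the caller, its threshold or the use of the input. Whole-series lines marked as depletion, 3 in number, were left out, so 12359 regions remained. Coverage was counted in bases. Others were weighted to the members' widths in 500 bp classes. The procedure was also run on simulated data on a single scaffold, where members and others lay far apart in coverage. That run could not show how it behaves near the coverage threshold or across scaffolds. The 95% Wilson intervals on shares cover counting error alone and take regions as independent. No test was made. The set and its measures were chosen with earlier results of these data known. Regions named were the strongest per chromosome by the lower replicate score, the 3 widest, narrowest, most isolated and most crowded, the largest replicate differences, the longest run and those next to a threshold; exceptions are marked. Alternatives changed the coverage and width limits, the overlap rule, the scaffolds, the matching and the replicates used. The software was Python 3.11.15 with scipy 1.17.1, pandas 2.3.3 and numpy 2.4.6.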

Additional observations from a re-analysis of the deposited data

How the results depend on the processing

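Of 85 values recomputed for 7 results, 47 were counted as unchanged, 35 as moved and 3 as reversed. The yardstick, a spread between replicates or the interval of the main value, differed between results. When a single replicate region had to cover 90%, the count of 305 was labelled unchanged and the share of 2.60% moved. The tally is thus only a rough guide. The cause of a move was not tested beyond what each alternative changes by construction. The number of regions was 980 at 80% coverage, 94 at 95% and 159 under 5 kb, and 1137 to 2477 with a replicate left out. As a share of the regions considered this was 8.36%, 0.802% and 1.55%, 9.70 to 21.1% with a replicate left out, 2.60% when a single replicate region had to cover 90%, 3.45% on the 5 arms alone and 6.06% when only scores from the list's median up were kept. The median width was 4459, 6757 and 3349 bp, 5027 bp with a single region and 5506.5 bp at or above the median score, and 2723 to 2928 bp with a replicate left out. The score difference was 0.184 at 95% coverage, 0.168 with a single region, 0.127 at or above the median score, 0.106 and 0.082 with the scores of replicate 1 and replicate 2, and 0.037 to 0.048 with a replicate left out. With replicate regions matched on their own width, an alternative added after seeing the data like that of others overlapping both replicates and that of neighbours of at least the shortest replicate width, it was 0.043 and 0.011. The distance difference was -1 bp at 80% coverage, -45 bp for replicate 1 regions at their own width, 387 bp between midpoints, -123 bp without replicate 1 and 56 bp without replicate 2, so it has no stable direction. The share on X minus the width-matched share, -3.29 percentage points, was negative under all 13 alternatives run for it. It was nearer 0 without replicate 2 (-1.37), without replicate 1 (-1.86) and under 5 kb (-1.66), and moved to -6.96 at or above the median score and to -12.1 with matching on score. Matching on score carries the higher scores of X regions into that last value. That on heterochromatin and U, -3.00, moved to -4.13 at 80% coverage and to -7.69 without replicate 2 and -0.210 without replicate 1. No paired analysis was possible because the input samples have no list here and no test was made. Read depth is unknown, so its effect on which regions were found cannot be given.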

Other observations

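The whole-series list holds 3 lines that its authors marked as depletion, with scores of -0.018 and -0.033 on 2R, from 16150105 to 16151613 and from 17029619 to 17031054, and of -0.00073 on 3L, from 3809871 to 3811425. Each was overlapped by 1 enriched region of replicate 1, which covered 88.6%, 98.96% and 100% of it in that order, and by none of replicate 2. The scores of those replicate 1 regions were 0.084, 0.077 and 0.167. The same stretch is thus listed as enriched in replicate 1 and as depleted in the whole-series list.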
